A study of Mus musculus with 4 samples.

Results

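The quantity described is, for each gene, how far the difference between the labelled Gfi1 genotypes in CD8 T cells departed from the same difference in CD4 T cells. All 4 arrays of the series enter it, 1 for each combination of genotype label and subset. On the log2 scale, the signal on the array labelled wildtype was subtracted from that labelled knockout within each subset, and the CD4 result was then subtracted from the CD8 result. A value of 1 in this subset difference means that the ratio of knockout to wildtype was 2-fold greater in CD8 than in CD4 cells, and a negative value means that it was smaller. The arrays gave it for 8596 of 12393 named genes, those above a floor of 93.9 signal units on 1 or more arrays, and 6882 of these were above the floor on all 4. Splenocytes of untreated C57Bl/6 mice had been stained and sorted by flow cytometry as CD4+ or CD8+ cells, and every sample is labelled CD44lo, the mark of naive T cells. The groups were Gfi1 knockout CD4, wildtype CD4, Gfi1 knockout CD8 and wildtype CD8, each on 1 Affymetrix MOE430A_2.0 array carrying pooled RNA of 2 mice. The labels give no age or sex, do not describe the knockout allele, and do not say whether CD4 and CD8 cells came from the same mice. With 1 array per group, no subset difference has a replicate error or a test, and so few arrays limit how precise each value can be. In bulk RNA of sorted cells, fewer cells of a type and less RNA per cell cannot be told apart.

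Gfi1 is a zinc finger protein that binds DNA and represses transcription in blood-forming cells and lymphocytes. CD4 T cells are mainly helper and regulatory cells that recognise peptides on MHC class II molecules, and CD8 T cells are mainly killer cells that recognise peptides on MHC class I. In either subset a naive cell that meets antigen divides, gains effector genes such as those for cytokines, granzymes and inflammatory chemokine receptors, and reduces part of its naive program.

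The genotype labels were not borne out by Gfi1 itself, and Cd44 ran against the CD44lo label. Gfi1 signal was 2891 and 2272 on the arrays labelled knockout and wildtype CD4, and 2447 and 1158 on those labelled knockout and wildtype CD8. The sources used here do not say whether its probe set lies inside the deleted region, and outside it the signal checks nothing. Cd44, the adhesion receptor used in the sort, was at 196 and 252 on the knockout-labelled CD4 and CD8 arrays against 8136 and 5740 on the wildtype-labelled ones, with a subset difference of 0.87. The titles of both knockout arrays carry the letter N and those of both wildtype arrays the letter M, and the labels do not explain these letters. The subset labels fitted Cd4 and Cd8a, each below the floor on the arrays of the other subset. Cd8b1, the beta chain of the CD8 receptor, was above the floor on all 4 arrays, at 970.5 and 312 on the knockout-labelled and wildtype-labelled CD4 arrays and 25715 and 26222 on the CD8 arrays. It was thus 3.11-fold higher on the knockout-labelled array in CD4 cells and level in CD8 cells, a subset difference of -1.66. The share of probe sets above the floor was between 58.4% and 61.6%. Genotype is therefore given as labelled, and genotype, the letters and Cd44 level cannot be told apart.

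The promoters of 4 genes are shown as examples of contrasting groups: MHC class II genes, where a CD8 array stood out, and mitosis genes, where the CD4 differences were the larger. Each run holds the 150 bases before the RefSeq start (GRCm38.p6), on the gene's strand. H2-Aa (chr17:34287824-34287973, minus strand) and H2-Eb1 (chr17:34305717-34305866, plus strand) encode an alpha and a beta chain of MHC class II molecules. Capitals mark CTGATTGG, the Y box letters of MHC class II promoters.
H2-Aa: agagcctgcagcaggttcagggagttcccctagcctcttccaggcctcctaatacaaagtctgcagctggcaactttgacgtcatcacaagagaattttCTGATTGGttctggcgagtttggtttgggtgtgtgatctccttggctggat
H2-Eb1: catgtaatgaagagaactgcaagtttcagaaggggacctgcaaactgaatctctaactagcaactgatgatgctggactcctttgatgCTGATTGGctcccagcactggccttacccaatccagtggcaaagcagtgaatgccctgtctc
In Cdk1 (chr10:69352913-69353062, minus strand), the kinase that drives entry into mitosis, and Ube2c (chr2:164769779-164769928, plus strand), a ubiquitin-conjugating enzyme of mitotic exit, capitals mark CCAAT and TTTGAA on either strand. TTTGAA is the core of the element known as the cell cycle genes homology region.
Cdk1: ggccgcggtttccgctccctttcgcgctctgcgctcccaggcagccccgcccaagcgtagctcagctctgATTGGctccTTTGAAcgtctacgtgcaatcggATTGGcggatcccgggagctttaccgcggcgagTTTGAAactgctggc
Ube2c: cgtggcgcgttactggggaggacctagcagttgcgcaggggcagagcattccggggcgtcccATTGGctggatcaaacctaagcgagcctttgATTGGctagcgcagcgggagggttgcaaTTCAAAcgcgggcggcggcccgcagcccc

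Searched on both strands, CTGATTGG was in 3 of 6 MHC class II windows (50.0%) and in 3.16% of all 32851 RefSeq windows of this length. It was also in 25.7% of 35 mitosis windows and 19.4% of 31 windows of DNA replication genes. It contains CCAAT read from the other strand, so the CTGATTGG and CCAAT counts overlap. CCAAT was in 27 mitosis windows (77.1%), 48.4% of DNA replication windows, 66.7% of MHC class II windows and 24.5% of all windows. TTTGAA was in 34.3% of mitosis windows against 9.07% of all. Both stood together in 11 mitosis windows (31.4%) against 2.24% of all, and in 0 windows of DNA replication genes, whose subset difference had the same sign. A match describes these letters only and shows neither binding nor a cause. H2-Ab1, named with the MHC class II genes below, had no entry in the sequence table.

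Of the 8596 genes, 525 had a subset difference of at least 1 (6.11%) and 291 of at most -1 (3.39%). The 6882 genes with signal over the floor throughout gave 294 and 175, and the 2 subsets' differences lay within 1.5-fold of each other for 5481 genes (79.6%). The median subset difference over the 8596 genes was -0.0018. Counts of list members below are to be read beside the 6.11% and 3.39% of all genes. Of all calls, 64.3% were positive, which became 55.2% when each array was centred on its median and 59.3% after quantile normalization.

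Genes that differed between labels in one subset were most often lower on the knockout-labelled CD4 array, by a margin that depended on the scaling. A gene was counted to one subset if its labelled genotypes were at least 2-fold apart there and the subset difference itself reached 2-fold. In the other subset they had to be under 1.5-fold apart, with signal above the floor on 1 or both arrays. Where only 1 array there was above the floor, the fold in that subset is a lower bound and may exceed 1.5. By this rule 174 genes (2.02%) were lower and 52 (0.605%) higher on the knockout-labelled array in CD4 cells alone. In CD8 cells alone 50 (0.582%) were lower and 25 (0.291%) higher. In the same order the counts were 150, 92, 50 and 35 after quantile normalization and 131, 122, 48 and 36 with median centring, where lower and higher genes in CD4 cells were nearly equal in number. Another 74 genes were 2-fold apart in CD4 cells with both CD8 arrays at the floor, and 52 in CD8 cells with both CD4 arrays at the floor, so for these the other subset gave no measurement. A further 152 genes went the same way in both subsets with sizes at least 2-fold apart, and 9 (0.105%) went opposite ways by at least 2-fold each.

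**Figure D1:**
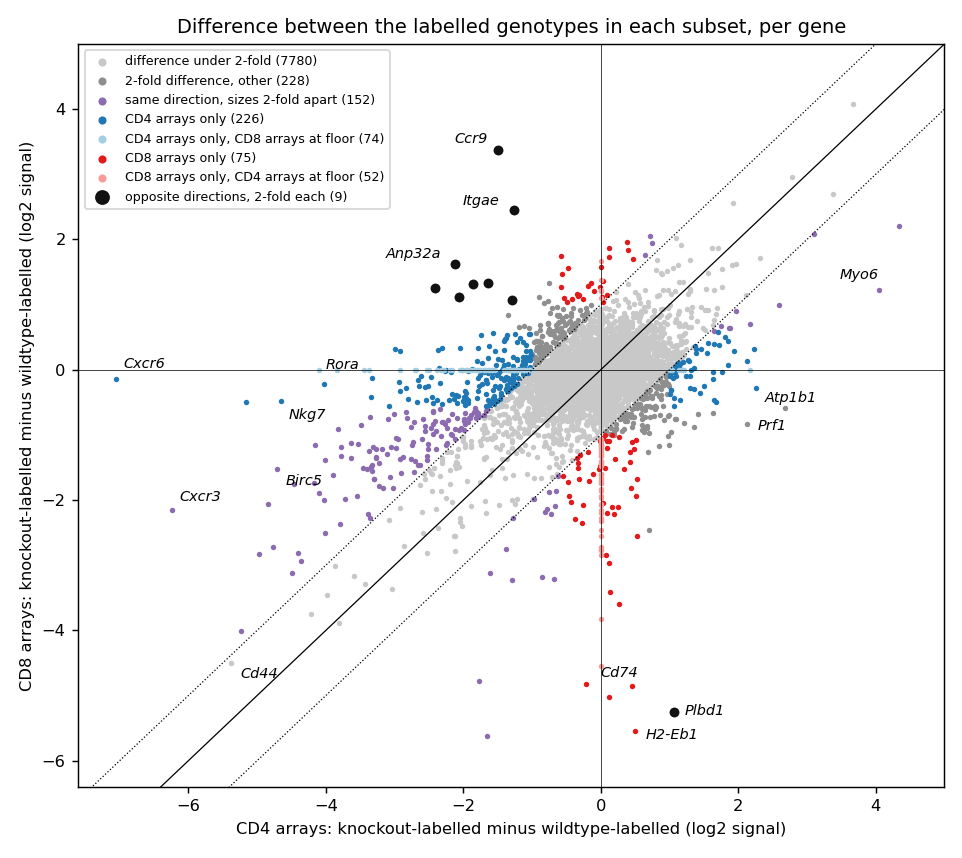
Difference between the knockout-labelled and wildtype-labelled arrays (log2 signal) in CD4 cells on the horizontal axis and in CD8 cells on the vertical axis, 1 point for each of 8596 genes, with the solid line where both are equal and dotted lines where they are 2-fold apart. Cxcr6 lies far to the left at a CD8 difference of -0.14, the MHC class II genes lie far below at CD4 differences near 0, and Ccr9 and Itgae lie at the upper left.

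Where a single array stood apart in such a gene, it was mostly a wildtype-labelled one. Among the 525 positive genes, the wildtype-labelled CD4 array alone stood apart, at least 2-fold above the other 3 arrays, in 226 (43.0%). The knockout-labelled CD4 array alone stood at least 2-fold below the others in 37. The knockout-labelled CD8 array was alone high in 11, and no array stood apart in 222. Among the 291 negative genes, the wildtype-labelled CD8 array stood alone high in 90 (30.9%), the wildtype-labelled CD4 array alone low in 32 and the knockout-labelled CD4 array alone high in 13. Another 16 positive and 3 negative genes had 1 array that far above and 1 that far below the rest, and these are not in the counts above. Where a gene was at least 2-fold lower in both subsets, its CD4 difference was usually the larger: this held for 145 of 178 such genes (81.5%), and for 68 of the 86 above the floor on all arrays. The 86 had a median log2 difference of -2.10 in CD4 and -1.48 in CD8 cells. Genes at least 2-fold higher in both subsets divided almost evenly, with 16 of 30 larger in CD4 cells. Of the 816 genes past 2-fold either way, 265 had a further probe set above the floor, and in 219 of these (82.6%) all further probe sets gave the same sign.

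Chemokine receptors of effector and helper cells included the gene with the largest positive value. Cxcr6, the receptor for the chemokine CXCL16, read 85.7 on the knockout-labelled CD4 array, 12476 on the wildtype-labelled CD4 array, 3917 on the knockout-labelled CD8 array and 4323 on the wildtype-labelled CD8 array. Only the knockout-labelled CD4 array was low, at the floor, so the CD4 signal was at least 133-fold lower there, and the subset difference was at least 6.91 (6.46 from its other probe set). Cxcr3, a receptor of type 1 helper and killer cells, read 183, 13852.5, 2774 and 12355.5 in the same order. It was low on both knockout-labelled arrays but 75.5-fold in CD4 and 4.45-fold in CD8 cells, a subset difference of 4.08. Of 11 measured receptors in this list, 8 had a subset difference of at least 1 and 2 of at most -1, with a median of 1.32. Only 3 of the 11 were above the floor on all arrays, all at least 1, with a median of 1.23. Among these, Ccr10 was positive because the knockout-labelled CD8 array was high, as given below. Ccr4 and Ccr8, receptors of type 2 helper and regulatory cells, had positive values from CD4 cells alone, since both CD8 arrays were at the floor. The negative members were Cx3cr1, on killer and myeloid cells, and Xcr1, on cross-presenting dendritic cells. Each was above the floor on the wildtype-labelled CD8 array alone, at 391 and 249.9.

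Nkg7, a protein of cytotoxic granules, was level between labels in CD8 cells and far apart in CD4 cells. Its signal was 179 and 4486 on the knockout-labelled and wildtype-labelled CD4 arrays and 10407 and 14569 on the CD8 arrays, a subset difference of 4.17. The CD4 difference was 25.1-fold, and the CD8 difference was under 1.5-fold. Ccl5, a chemokine of memory and killer cells, was lower on both knockout-labelled arrays, with log2 differences of -4.98 in CD4 and -2.83 in CD8 cells. Gamma chain genes of the gamma delta T cell receptor stood with the genes of CD4 cells alone: Trgv1 read 83.1 and 1532 in CD4 against 271 and 314 in CD8 cells, and Trgv4 read 179 and 1358 against 493 and 617. Their subset differences were at least 3.82 and 2.60, and all 3 probe sets of Trgv4 gave at least 1.66. Tiam1, an exchange factor for the GTPase Rac, read 79.1, 3368, 76.9 and 132 in the order of the chemokine receptors. It was thus high on the wildtype-labelled CD4 array alone, and with both knockout-labelled arrays at the floor its subset difference of 4.67 has no bound on either side.

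Transcription factors of memory and effector cells followed the CD4 arrays. In this list 9 of 14 measured members had a subset difference of at least 1 and 0 of at most -1, and the median was 1.56. The shares over all 8596 genes were 6.11% and 3.39%. Over the 7 members above the floor on all arrays, 3 were at least 1 and the median was 0.64. Rora, a nuclear receptor of helper and innate lymphoid cells, read 119 and 1192 in CD4 cells and 245 and 266 in CD8 cells. The wildtype-labelled CD4 array was high, and the subset difference was 3.20 with the probe set used and 2.40 and 0.37 with the others, the last of which left 3 arrays at the floor. Id2, an inhibitor of E proteins, read 2942 and 15967 in CD4 and 4259 and 6048 in CD8 cells. Its labelled genotypes were 5.43-fold apart in CD4 and 1.42-fold in CD8 cells (subset difference 1.93), and 2 of its 3 probe sets passed 2-fold. Tbx21, the master regulator of type 1 helper cells, read 65.6, 2689, 864 and 3599 in the order of the chemokine receptors. It was lower on both knockout-labelled arrays, by at least 28.6-fold in CD4 cells and 4.16-fold in CD8 cells. Eomes, its relative in memory CD8 cells, was alike in the subsets at log2 differences of -1.94 and -1.70.

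Genes of regulatory T cells differed mostly in CD4 cells. Of 15 members measured, 12 had a subset difference of at least 1, 0 of at most -1, and the median was 1.70. The CD4 and CD8 medians were -1.70 and 0.00, and 3 of the 12 had both CD8 arrays at the floor. Foxp3, the factor that defines regulatory T cells, was at 221 on the knockout-labelled and 824 on the wildtype-labelled CD4 array and below the floor in CD8 cells. Ctla4, an inhibitory receptor of activated and regulatory T cells, read 585 and 4490.5 in CD4 and 368 and 417 in CD8 cells, a subset difference of 2.76. The semaphorin receptor Nrp1 read 505 and 3816 in CD4 and 419 and 343 in CD8 cells, and its 3 probe sets gave subset differences from 3.03 to 3.21. In both genes the wildtype-labelled CD4 array was at least 2-fold above the other 3. Il2ra, the high-affinity IL-2 receptor chain, was above the floor on that array alone, at 336.

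Receptors and ligands of helper responses also had mostly positive calls. Of 22 checkpoint and costimulation receptors 10 had a subset difference of at least 1 and 1 of at most -1, with a median of 0.79. Icos, a costimulator of follicular helper cells, read 1296 and 4964 in CD4 and 895 and 910.2 in CD8 cells, a 3.83-fold difference against 1.02-fold. Pdcd1, the inhibitory receptor PD-1, was high on the wildtype-labelled CD4 array, at 1966 against 175 on the knockout-labelled one, 51.9 on knockout-labelled CD8 and 168 on wildtype-labelled CD8. Among 20 measured cytokines, chemokines and death ligands, 10 had a subset difference of at least 1 and 2 of at most -1, and 5 of the 10 had both CD8 arrays at the floor. The median was 1.08, but over the 9 members above the floor throughout it was 0.16, with 2 at least 1 and 1 at most -1. Il4, the type 2 helper cytokine, reached 710.4 on the wildtype-labelled CD4 array and lay below the floor on the other 3. The same held for Il2, the T cell growth factor, at 605 and for Il21, a cytokine of follicular helper cells, at 531. Tnfsf11, the ligand RANKL, read 128 and 1831 in CD4 cells and lay below the floor in CD8 cells. Tnf, an inflammatory cytokine measured on all arrays, read 242 and 998 in CD4 and 245 and 194 in CD8 cells. Only the wildtype-labelled CD4 array was high, and the subset difference was 2.39.

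**Figure D2:**
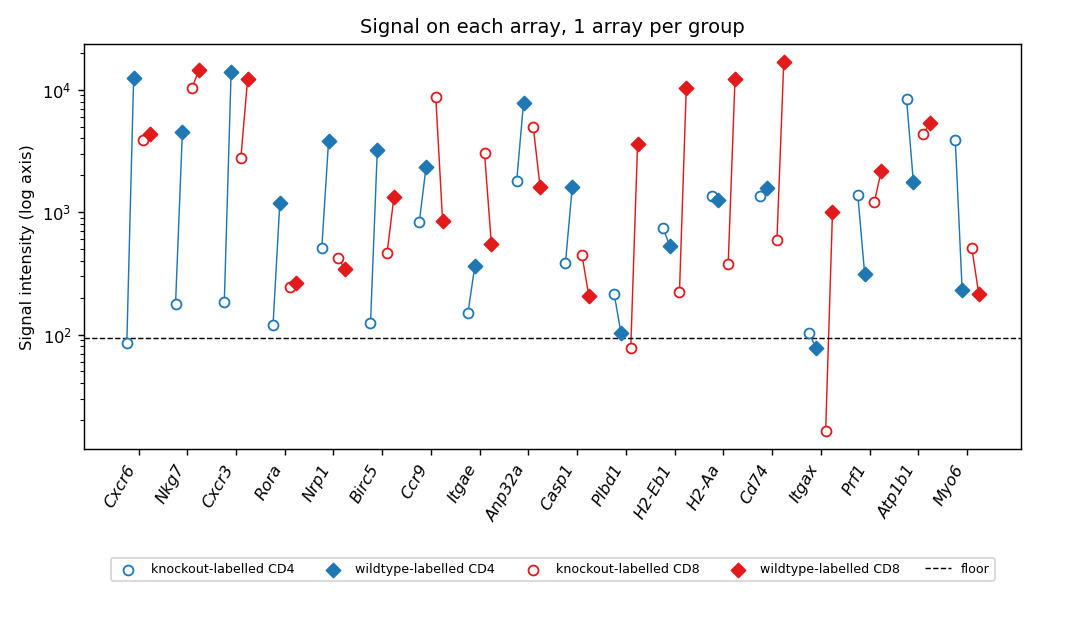
Signal intensity (log axis) of 18 genes on the 4 arrays, with 1 array per group; open circles are knockout-labelled, filled diamonds wildtype-labelled, blue CD4, red CD8, and the dashed line is the floor of 93.9. Cxcr6 and Nkg7 are low on the knockout-labelled CD4 array alone, the MHC class II genes and Itgax are high on the wildtype-labelled CD8 array alone, and Ccr9 is high on the knockout-labelled CD8 array.

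Cell division genes were lower on both knockout-labelled arrays, and more so in CD4 cells. All 39 measured mitosis genes had a positive subset difference, from 0.56 to 3.19 with a median of 1.30, and 24 reached 1. The lowest value came from a gene above the floor on the wildtype-labelled CD4 array alone, where the sign could only be positive. Over the 20 members above the floor on all arrays, the values ran from 0.72 to 3.19 with a median of 1.78, and 17 reached 1. Of the 39 genes, 38 were at least 2-fold lower in CD4 cells and 24 in CD8 cells, against 7.29% and 3.99% of all 8596 genes. Birc5, or survivin, a subunit of the chromosomal passenger complex, read 123 and 3230 in CD4 and 461 and 1325 in CD8 cells. It was 26.2-fold lower on the knockout-labelled array in CD4 and 2.88-fold in CD8 cells. Cdk1, whose promoter is shown above, read 136 and 1873 in CD4 and 287 and 651 in CD8 cells, a subset difference of 2.60. Ube2c, also shown, read 185 and 3339 in CD4 and 359 and 1199.7 in CD8 cells, a subset difference of 2.43. The order of the arrays was the same in these 3 genes, with wildtype-labelled CD4 the highest and knockout-labelled CD4 the lowest. Racgap1, a regulator of cytokinesis, departed from that order: it was low on the knockout-labelled CD4 array, at 235 against 1474, and near level in CD8 cells at 2698 and 3216.

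DNA replication genes had 14 of 31 members at a subset difference of at least 1, 0 at most -1, and a median of 0.92. Rrm2, the small subunit of ribonucleotide reductase, read 210.3 and 4639 in CD4 and 540.3 and 1814 in CD8 cells, and its 3 probe sets gave 2.37 to 3.70. Tk1, the salvage enzyme thymidine kinase, read 11.2 and 1293 in CD4 and 196 and 489 in CD8 cells. Both genes were lowest on the knockout-labelled CD4 array. Pcna, the sliding clamp, and Mcm2, a helicase subunit, differed little between subsets at 0.20 and -0.01.

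Among the genes named as higher on the knockout-labelled array in CD4 cells alone, the wildtype-labelled CD4 array was the lowest, but not always by 2-fold. Atp1b1, the beta subunit of the sodium pump, read 8370 and 1757 in CD4 and 4393 and 5310 in CD8 cells. The subset difference was -2.53, and 4 of its 5 probe sets passed 2-fold; the other lay near the floor. Tec, a tyrosine kinase of T cell receptor signalling, read 2634 and 606 in CD4 and 3298 and 3010.3 in CD8 cells. Cd55, an inhibitor of complement, read 1239 and 265 in CD4 and 1279 and 1024 in CD8 cells, and its 2 probe sets gave -1.91 and -2.17. In all 3 genes the wildtype-labelled CD4 array was at least 2-fold below the others. In Sorcs2 and Tnfrsf12a, also higher in CD4 cells alone, no array stood 2-fold apart with the floor applied. Il4ra, a chain of the IL-4 receptor, read 3068 and 958 in CD4 and 1681 and 2365 in CD8 cells, a subset difference of -2.17, or -2.34 and -0.52 from its other probe sets. Myo6, an unconventional myosin, was higher on both knockout-labelled arrays but by 16.6-fold in CD4 and 2.34-fold in CD8 cells, with all 3 probe sets between -3.70 and -2.49.

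Among factors of naive and quiescent T cells, 0 of 15 had a subset difference of at least 1 and 1 of at most -1, and the median was -0.23. The member past 2-fold was Satb1, a chromatin organiser, at 14385 and 5506 in CD4 and 13119 and 10978 in CD8 cells. Lef1, a factor of the Wnt pathway, and Bach2, a repressor of effector genes, came next at -0.99 and -0.95. Ccr7, the receptor that brings naive cells to lymph nodes, read 15625 and 4805 in CD4 and 12549 and 8380 in CD8 cells, and its subset difference was -1.12. In both Satb1 and Ccr7 the wildtype-labelled CD4 array was the lowest.

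Within the BCL2 family, 3 members had subset differences of at most -1. Bbc3, the death promoter PUMA, read 1621 and 524 in CD4 and 1244 and 1972 in CD8 cells, a subset difference of -2.29. Bcl2, the survival protein, read 660.4 and 325 in CD4 and 729 and 907 in CD8 cells, a subset difference of -1.34 with the CD8 arrays under 1.5-fold apart. Bcl2l11, the death promoter BIM, stood at -1.14, with its other 4 probe sets between -2.41 and -0.83. Of 13 measured members 2 were at least 1, Bik and Pmaip1, and the list's median was 0.29. Bik had both CD8 arrays at the floor, and Pmaip1 changed sign with a higher floor.

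MHC class II genes gave the opposite pattern: level in CD4 cells and far apart in CD8 cells. H2-Eb1 read 749 on the knockout-labelled and 531 on the wildtype-labelled CD4 array, and 222 and 10415.5 on the CD8 arrays. Only the wildtype-labelled CD8 array was high, 46.9-fold above its knockout-labelled counterpart, and the subset difference was -6.05. H2-Aa read 1357, 1254, 379.5 and 12284 in the same order, with subset differences of -5.13 and -5.10 from its 2 probe sets. H2-Ab1, a further beta chain, read 575, 419.5, 249 and 7185, and its 3 probe sets gave -3.88 to -5.90. Cd74, the invariant chain that escorts these molecules, read 1354, 1576, 593 and 16735, a subset difference of -4.60. In all 4 genes the knockout-labelled CD8 array was the lowest and the wildtype-labelled one the highest. The remaining measured members were smaller: H2-DMb2 was at -0.78, H2-DMa at -0.41 and H2-Oa at 0.20, subunits of molecules that load or edit peptides. Ciita, the coactivator of the family, was above the floor on the wildtype-labelled CD8 array alone, at 229. Of 8 members measured, 5 were at most -1 and 0 at least 1, with a median of -2.94.

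Dendritic cell genes stood out on the same array. The 5 defining markers named on the array, Itgax, Flt3, Batf3, Xcr1 and Zbtb46, were all above the floor on the wildtype-labelled CD8 array and summed to 2095 there. On the other 3 arrays their sum was between 219 and 406, with 0 to 2 of them above the floor. Itgax, the integrin CD11c, read 103, 77.9, 16.3 and 1003 in the order knockout CD4, wildtype CD4, knockout CD8 and wildtype CD8, and its subset difference was at least 3.55 in size, in the negative direction. Over the 12 members of the wider list, 7 were at most -1 and 1, Ccr9, was at least 1, with a median of -1.21. The 5 members above the floor throughout had a median of -0.36, with 2 at most -1 and 1 at least 1. Of 12 measured monocyte and macrophage genes, 5 were at most -1 and 0 at least 1, against 3.39% and 6.11% of all genes. Mpeg1, a pore-forming protein of phagocytes, was at 4610.3 on the wildtype-labelled CD8 array and 294 or below on the others. Of the 4 members above the floor throughout, only Fcgr3 was at most -1. Its knockout-labelled CD4 array was the high one, at 231, and its CD8 arrays were level at 116 and 111.5. The defining monocyte and macrophage markers summed to 1042 on the wildtype-labelled CD8 array against 448 to 569 on the others, and Cd14 was at the floor on all 4. Cst3, the protease inhibitor cystatin C, read 3452, 2905, 3533 and 15156 and so was also high there. Of the 5 defining B cell markers named on the array, Cd79a, Ms4a1 and Pax5 were at the floor on all 4. Cd22, a B cell coreceptor, read 154 and 1124 in CD4 and 76.3 and 615 in CD8 cells and was thus high on both wildtype-labelled arrays. Cd79b, a chain of the B cell receptor, read 57.1 and 305 in CD4 and 738 and 759 in CD8 cells, and was at the floor on the knockout-labelled CD4 array alone. The 5 summed to 253, 1488, 852 and 1545 in the order of Itgax. Ighm, the IgM heavy chain of the wider B cell list, was between 10871 and 16664 on all arrays. The part of other cell types in the MHC class II result was not tested.

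Cytotoxic genes divided by gene. Gzmm, a granzyme of innate-like killer cells, read 89.5 and 79.9 in CD4 cells, both at the floor, and 190.1 and 4443 in CD8 cells, a 23.4-fold difference. Gzma, granzyme A, read 103 and 185 in CD4 and 621 and 5633 in CD8 cells, a subset difference of -2.33. Both were high on the wildtype-labelled CD8 array. The inhibitory natural killer receptor gene Klra7 was above the floor on that array alone, at 1329, as was the defining natural killer marker Klra8, at 221. The other defining marker, Ncr1, was at the floor on all 4. Of 9 measured natural killer genes, 3 were at most -1 and 2, Nkg7 and Klrb1b, at least 1, with a median of -0.07. Klrb1b was above the floor on the wildtype-labelled CD4 array alone, at 299. The part of natural killer cells in these results was not tested. Prf1, the pore-forming protein perforin, read 1375 and 314 in CD4 and 1214 and 2170 in CD8 cells. On the knockout-labelled array it was thus 4.38-fold higher among CD4 cells and 1.79-fold lower among CD8 cells, a subset difference of -2.97. Its other probe set lay at or near the floor, at -0.21, and averaging both gave -1.59. Of 14 measured granule genes 4 were at most -1 and 2 at least 1, with a median of 0.11. Gzmk and Gzmb, granzymes lower on both knockout-labelled arrays, had subset differences of 0.44 and -0.66, each with an array at the floor.

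Few genes were higher on the knockout-labelled array in CD8 cells alone, and most of those named had low signals. Iigp1, an interferon-induced GTPase of cellular defence, read 2447 and 1861 in CD4 and 2046 and 570.1 in CD8 cells. Only the wildtype-labelled CD8 array was low, and both probe sets gave at least 1.45. Ms4a4d, a membrane protein of the CD20 family, read 333 and 499 in CD4 and 521 and 156 in CD8 cells, a subset difference of 2.33. Dntt, the enzyme that adds untemplated bases to antigen receptor joints, read 192 and 178 in CD4 and 355 and 97.2 in CD8 cells, a subset difference of 1.75, or 1.08 and 0.00 from its other probe sets. Ccr10, a receptor of skin and mucosal homing, was high on the knockout-labelled CD8 array, at 651 against 175 to 242 on the others.

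Of the 9 genes at least 2-fold apart in opposite directions, 8 were lower on the knockout-labelled array in CD4 and higher in CD8 cells. Ccr9, the receptor that brings T cells to the small intestine and thymus, read 824 and 2334 in CD4 and 8690 and 839 in CD8 cells. The knockout-labelled CD8 array was the high one, and all 3 probe sets gave opposite directions past 2-fold, with subset differences of 4.87, 4.61 and 3.83. Itgae, the integrin CD103 that retains T cells in epithelium, read 150.3 and 362 in CD4 and 3018 and 552 in CD8 cells, a subset difference of 3.72 from its 1 probe set. Casp1, the inflammasome protease, read 383 and 1605 in CD4 and 447 and 206 in CD8 cells, a subset difference of 3.18. Casp4, its relative that senses bacterial lipopolysaccharide, read 311 and 1129 in CD4 and 315 and 127 in CD8 cells, a subset difference of 3.17. Both caspases were highest on the wildtype-labelled CD4 array and lowest on the wildtype-labelled CD8 array. The other 11 measured caspases and inhibitors had subset differences from -0.61 to 1.02.

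The probe sets did not all bear out the opposite direction in the other genes. Egln3, an oxygen-sensing prolyl hydroxylase, read 111 and 591 in CD4 and 313 and 131 in CD8 cells, and its 2 probe sets gave 3.67 and 1.67. In the second, the log2 differences were -0.86 and 0.81, opposite but under 2-fold. Anp32a, an acidic nuclear phosphoprotein, read 1791 and 7825 in CD4 and 4976 and 1613 in CD8 cells, a subset difference of 3.75. Its 2 further probe sets had clear signal on all arrays and gave 0.32 and 0.25, so the direction rests on 1 probe set of 3. Tmem144, a membrane protein, was read at 2.97 from a probe set of low signal, at 101 and 316 in CD4 and 236 and 25.3 in CD8 cells. Its others lay at or near the floor and gave 0.46 and 0.00. Gpr155, a lysosomal cholesterol sensor, had 1 probe set, at 195 and 476 in CD4 and 363 and 173 in CD8 cells, a subset difference of 2.36.

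Plbd1, a phospholipase-like protein of myeloid cells, was the gene of the reverse direction. It read 215 and 103 in CD4 and 77.0 and 3573 in CD8 cells, a subset difference of at least 6.31 in size, in the negative direction. The wildtype-labelled CD8 array stood alone high, and the CD4 signals were close to the floor. With a limit of 1.5-fold in each subset, 25 genes measured on every array went each way.

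**Figure D3:**
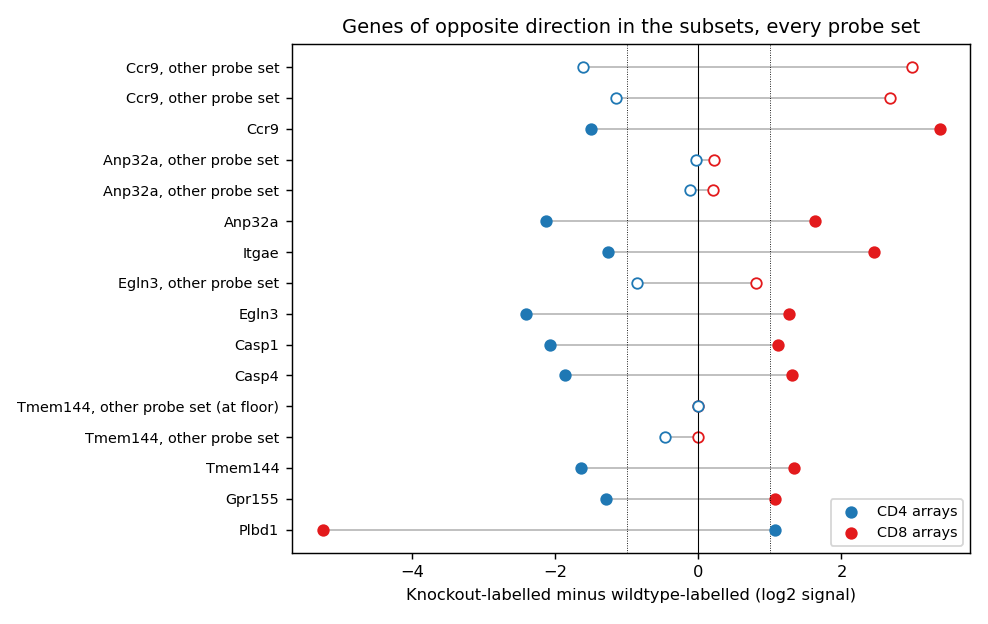
Log2 difference between the knockout-labelled and wildtype-labelled arrays in CD4 (blue) and CD8 cells (red) for each probe set of the 9 genes of opposite direction; filled points are the probe sets used, open points the others, and dotted lines mark 2-fold. All 3 probe sets of Ccr9 straddle 0 past 2-fold, while the 2 further probe sets of Anp32a stay near 0.

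Lists of basic cell functions showed no member past 2-fold between the subsets with the probe set used for each gene. These were oxidative phosphorylation (54 measured genes), the proteasome (33), heat shock proteins and chaperones (25), cholesterol synthesis (21), glycolysis (18) and MHC class I presentation (10). Their medians were between -0.07 and 0.17. Some further probe sets of members did pass 2-fold, such as -1.35 for Ndufa10, 1.24 for Ldhb and 1.16 for Idi1. The MHC class I median was -0.07, beside -2.94 for MHC class II. The 31 cytosolic ribosomal proteins had a median of -0.33 with 1 member past 2-fold, Rpl12 at -1.14, but the median was -0.03 after quantile normalization. The interferon response list was mixed, with 4 of 27 measured genes at least 1 and 0 at most -1. Of 16 measured genes reported as Gfi1 targets, 5 were at least 1 and 2 at most -1, with a median of 0.49.

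**Figure D4:**
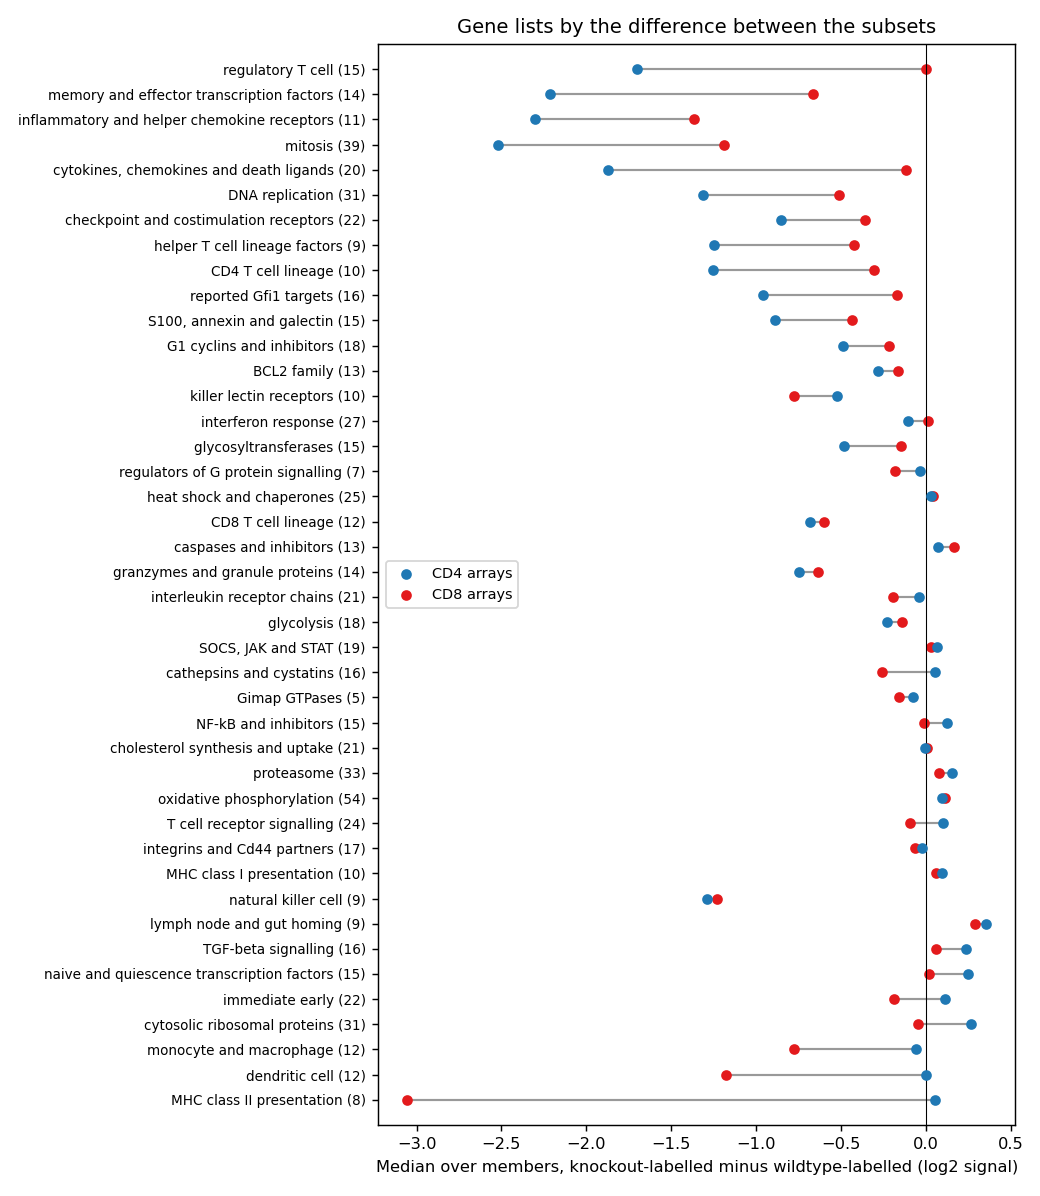
Median log2 difference between the knockout-labelled and wildtype-labelled arrays over the measured members of each gene list with 5 or more (number in brackets), in CD4 (blue) and CD8 cells (red), ordered by the median subset difference. Regulatory T cell genes lie at -1.70 and 0.00 at the top and MHC class II genes at 0.06 and -3.05 at the bottom, while basic cell functions have both points near 0.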

How the data were processed

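The deposited values were linear signal intensities per probe set. GCOS 1.4 and MAS5 appear in the submitters' processing notes, and the sources used here name no later step. The 2% trimmed mean was near 1000 on each array (1000.41 to 1000.46), so the arrays appear scaled to a common level. Of 22690 probe sets 64 controls were left out, 20380 had 1 gene symbol, and 691 with several symbols and 1555 unlisted ones were not used for genes. RefSeq (GRCm38.p6) held 20351 of those with 1 symbol. Each gene took its probe set of highest mean log2 value. Signals under the 40th percentile (93.9) were set to it before log2, so folds with 1 array there are lower bounds, none is given with both, and list medians take members at these values. Values were computed with Python 3.11.15, numpy 2.4.6 and pandas 2.3.3, and the classes were tested on simulated data. No test was possible.

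The gene lists and rules were chosen with earlier results of these data known. A rule set the genes to name. It took the 10 most extreme subset differences each way above the floor on all arrays. To these it added 10 each way that the floor can only understate and all genes of opposite direction. It also took 5 each way of each single subset, up to 5 of each list and the MHC class II list. Not all of these genes are described above. Left out, for example, were G0s2 at -3.17 and Marcks at -2.54. Further examples, with an array at the floor, were Alox5ap at most -3.86 and Atp8a2 at least 3.32. Gfi1, Cd44, Cd4 and Cd8a were always included. Outside this rule, Ccl5, Eomes, Ccr4, Ccr10, Xcr1, Zbtb46, Pcna, Mcm2, Gzmk, Gzmb and the cell type markers at the floor were named with their values known.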

Additional observations from a re-analysis of the deposited data

Results flagged for a closer look

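In 9 genes, each subset's single comparison moved at least 2-fold in the direction opposite to the other's. The subset difference was 4.87 for Ccr9, 3.75 for Anp32a, 3.72 for Itgae, 3.67 for Egln3, 3.18 for Casp1, 3.17 for Casp4, 2.97 for Tmem144 and 2.36 for Gpr155, all lower on the knockout-labelled array in CD4 cells and higher in CD8 cells. It was -6.31 for Plbd1, which went the other way. With 1 array per group the difference was not tested. Averaging all probe sets in place of the brightest gave 1.44 for Anp32a, 1.14 for Tmem144 and 2.67 for Egln3, against 4.44 for Ccr9. With the floor at the 60th percentile, the value was 0.08 for Gpr155, 0.39 for Egln3, 1.33 for Casp4, 1.83 for Casp1, 2.45 for Itgae and -2.99 for Plbd1, Tmem144 gave none, and Ccr9 and Anp32a stayed at 4.87 and 3.75.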

How the results depend on the processing

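The counts depended most on the floor. In the order positive, negative, opposite, CD4 lower, CD4 higher, CD8 lower and CD8 higher, they were 525, 291, 9, 174, 52, 50 and 25 as reported. With the floor at the 25th percentile they were 1060, 797, 67, 310, 123, 184 and 88, and at the 60th 182, 109, 2, 66, 27, 15 and 4. With no floor they were 2109, 1887, 615, 598, 353, 476 and 285, and with a pseudocount of 16 in its place 1532, 1273, 198, 559, 281, 388 and 229. Both of these settings took in all 12393 named genes, while the reported counts are over 8596. Moving the floor also changes which genes are measured, so the counts do not share a total. Genes above the floor on all 4 arrays gave 294 positive, 175 negative, 113 CD4 lower and 28 CD8 lower. The genes higher in CD4 cells alone numbered 92 under quantile normalization and 122 under median centring. The cause was not tested.

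The naming rule gave 144 genes past 2-fold, described above or not. Of their 1194 values under the alternatives, 1189 kept their sign. But 75 fell under 2-fold, 31 of them with the 60th percentile floor. The exceptions in sign were Cd79b at -0.0416, Pmaip1 at -0.54 and Mx1 at -0.33 with the 60th percentile floor. With no floor they were Klrb1b at -0.89 and Ebi3 at -0.65. Of 13 lists with a median beyond 1.5-fold, 114 of 116 values kept their sign and 14 fell under 1.5-fold. The erythroid and platelet list, of 2 measured genes, turned to -0.18 with no floor and -0.15 with the pseudocount. No paired analysis was possible because each group had 1 array and the labels carry no replicate numbers, and leaving out an array leaves no subset difference.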

Other observations

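Probe sets that list several genes or none gave 997 values above the floor on all 4 arrays, with 38 subset differences of at least 1 (3.81%) and 20 of at most -1 (2.01%). Immunoglobulin kappa was among them. A probe set listing Igkc with variable and joining segments read 137 and 5314 on the knockout-labelled and wildtype-labelled CD4 arrays and 118 and 684 on the CD8 arrays, a subset difference of 2.74. A second with the same listing gave 2.78. The wildtype-labelled CD4 array was thus the high one. The B cell gene Cd22 was also highest there, at 1124, Cd79b and Ighm were not, and Cd79a, Ms4a1 and Pax5 were at the floor on all arrays. The part of B cells in this signal was not tested. A probe set shared by the gamma chain segments Trgv4 and Trgv2 read 204 and 2959 in CD4 and 597 and 1066 in CD8 cells, a subset difference of 3.02. A probe set shared by the killer receptors Klra9 and Klra3 read 100 and 644 in CD4 and 134 and 3099.5 in CD8 cells, a subset difference of -1.85. A probe set shared by H2-Ob, an MHC class II editing subunit, and Gm20506 read 275 and 169 in CD4 and 168 and 574 in CD8 cells, a subset difference of -2.48.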
